A study of Mus musculus with 1049 samples.

Results

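Dermal fibroblasts from old mice were divided by how much fibrillar collagen message each cell held, and the cells poorest and richest in it were compared across all other genes. The classes were chosen by the summed level of Col1a1, Col1a2 and Col3a1 in each cell, as counts scaled to the library size of the cell (CPM). The old cells of each experiment were ranked by this value and divided into 3 classes of equal size, which gave 80 collagen-low, 80 middle and 80 collagen-high cells. These 240 cells were those that passed the cell filters among 318 old wells, and 735 of 861 wells passed in the whole series. Because the same reads chose the classes, the levels of the 3 collagen genes are given as a description, with no test.

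The mice were C57Bl/6, and the old animals were 18 months old. Young animals of 2 months, divided in the same way, served for comparison and for the estimate of spread, and newborn cells were not used. Skin was freed of subdermis and of patches of growing hair, digested enzymatically, and stained for CD45, CD117, EpCam, CD31, CD34 and Pdgfra before single cells were sorted into plate wells and read with Smart-seq2, a full-length method without molecular identifiers. Since the labels tell apart 2 experiments but not the mice behind them, n = 2 for every class. The p-values measure how unlike the class differences were in the 2 experiments, estimated from old and young sums together. They do not measure the spread between mice.

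Type I collagen, a trimer of 2 chains encoded by Col1a1 and 1 encoded by Col1a2, and type III collagen, a trimer of the Col3a1 product, form most of the fibrils of the dermis. Fibroblasts make the chains as procollagen in the endoplasmic reticulum, where prolines and lysines are hydroxylated and chaperones assist folding. After secretion the propeptides are cut off, fibrils assemble with small proteoglycans and minor collagens, and lysyl oxidases crosslink them. Cathepsins and matrix metalloproteinases degrade collagen inside and outside the cell.

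Between collagen-low and collagen-high old cells, the genes with the smallest p included matrix genes, proteases, chaperones and transcription factors. Sparc, Col5a2, C1qtnf3, Adamts2 and the cathepsins Ctsk and Ctsh had lower values in collagen-low cells in both experiments. Higher values in collagen-low cells were found for immediate early genes such as Junb, Fos and Ier2, for the chaperone genes Hspa8, Dnajb1 and Hspd1, and for Apoe. None of these differences passed the test across all genes. With edgeR's quasi-likelihood test, 0 of 4939 genes were called lower (0%) and 0 higher (0%) in collagen-low cells, and 348 had an unadjusted p under 0.05, of which 197 were lower and 151 higher. DESeq2, on the same sums, called 122 genes lower and 89 higher. Leaving the calls aside, 1290 genes (26.1%) were lower and 1355 (27.4%) higher in collagen-low cells in both experiments.

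The promoters of Fos and Junb, 2 immediate early genes among those with the smallest p at higher values in collagen-low cells, and of Col3a1, from the genes that set the classes, are shown as the 250 bases before the RefSeq start, 5′ to 3′ on the strand of the gene (build GRCm38.p6). The windows lie at chr12:85473640-85473889 on the plus strand for Fos, chr8:84978749-84978998 on the minus strand for Junb and chr1:45311288-45311537 on the plus strand for Col3a1. Capitals mark matches to TGACG, the core of a cyclic AMP response element, and to CCAAT, searched on both strands.
Fos: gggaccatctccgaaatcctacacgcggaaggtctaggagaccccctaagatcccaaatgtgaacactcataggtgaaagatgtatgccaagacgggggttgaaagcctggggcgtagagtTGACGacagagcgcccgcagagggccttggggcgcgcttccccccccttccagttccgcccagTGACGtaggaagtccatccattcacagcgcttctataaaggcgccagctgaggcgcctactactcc
Junb: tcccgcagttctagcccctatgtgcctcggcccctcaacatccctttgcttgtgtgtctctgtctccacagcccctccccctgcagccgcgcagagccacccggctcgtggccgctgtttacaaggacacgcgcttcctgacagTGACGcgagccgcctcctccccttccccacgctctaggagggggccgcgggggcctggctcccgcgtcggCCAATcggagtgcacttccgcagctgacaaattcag
Col3a1: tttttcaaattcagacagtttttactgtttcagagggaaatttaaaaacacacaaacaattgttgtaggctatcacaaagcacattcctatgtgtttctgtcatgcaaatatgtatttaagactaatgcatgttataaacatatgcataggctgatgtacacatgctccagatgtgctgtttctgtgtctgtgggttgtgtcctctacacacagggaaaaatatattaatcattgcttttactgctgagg
The Fos window held TGACG starting 129 and 66 bases before the start, and the Junb window held it 106 bases before the start, with CCAAT 36 bases before it. Neither letter string was found in the Col3a1 window. Of all 32851 promoter windows of this length, 17.8% held TGACG and 33.8% held CCAAT on either strand. Counted by gene, 13 of the 24 immediate early genes that were tested and had an entry held TGACG in a window, against 19.8% of all 27025 genes with an entry. CCAAT was held by 11 of the 24, against 37.5% of all genes. A CArG box, the serum response element core, was held within these 250 bases by 1 of the 24 (4.17%) and by 1.62% of all genes. Bases further upstream were not searched. These are matches of letters, not measured binding.

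The collagen value was far lower in old than in young cells, and it spread widely within each age. Its median was 6191 and 6227 CPM in old cells of experiments 1 and 2, against 52729 and 39827 CPM in young cells. In experiment 1, 119 of 126 old cells (94.4%), and in experiment 2, 109 of 114 (95.6%), lay at or below the highest value of the young collagen-low cells. Only 5 and 1 old cells lay above the young median of their experiment. The collagen-high cells of old skin were thus high relative to other old cells, and most had less of these messages than the median young cell.

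**Figure D1:**
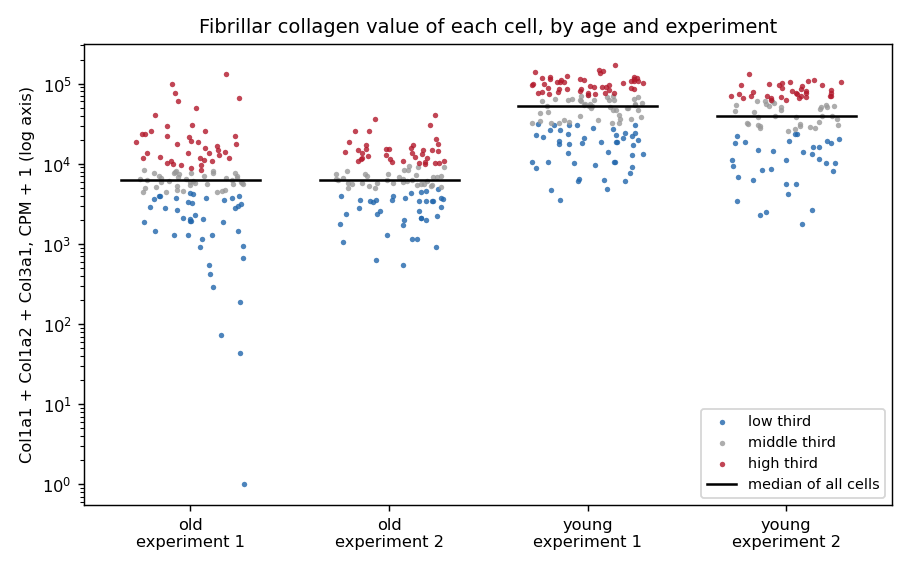
Each point is 1 kept cell, placed by age and experiment (x axis) and by its summed Col1a1, Col1a2 and Col3a1 CPM plus 1 on a log axis (y axis), coloured by class within that age and experiment. Black bars are medians of all cells, at 6191 and 6227 CPM before the added 1 in old and 52729 and 39827 CPM in young cells.

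The class edges cut through a continuous range. In experiment 1 the highest collagen-low cell had 4316 CPM and the lowest middle cell 4443 CPM, while the highest middle cell had 8294 CPM and the lowest collagen-high cell 8390 CPM. In experiment 2 these 4 values were 4828, 4960, 9367 and 9806 CPM. No gap separated the classes, which are ranges of 1 value. Classes of equal size cut from a ranked value need not have gaps, so this does not show whether they differ in fibroblast type. That was not tested. A single old cell of experiment 1 had no read of the 3 genes, and the highest old cell, in the same experiment, had 130429 CPM against 98045 CPM in the next and 40886 CPM in the highest cell of experiment 2.

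All 3 genes took part in the split. Col1a1 (chr11:94936224-94953042, GRCm38, GENCODE M21) was at 575 and 539 CPM in the collagen-low sums of experiments 1 and 2 and at 5879 and 2644 CPM in the collagen-high sums. Col1a2 (chr6:4504814-4541544) was at 1009 and 1575 CPM in low sums and at 11683 and 6741 CPM in high sums. Col3a1 (chr1:45311538-45349706) was at 409 and 519 CPM in low sums and at 8594 and 6557 CPM in high sums. Middle sums lay between the low and high ones for each gene in both experiments. Most collagen-low cells still held some collagen message, since Col1a1 was read in 77, Col1a2 in 73 and Col3a1 in 60 of the 80. In the 80 collagen-high cells, Col1a1 and Col1a2 were each read in 80 and Col3a1 in 79. When the classes were set by the other 2 genes alone, the median of the gene left out still increased from low over middle to high cells in both experiments. For Col3a1, for example, these medians were 278, 1040 and 3362 CPM in experiment 1 and 703.1, 1949 and 3299 CPM in experiment 2.

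The cells carried fibroblast messages. Ptprc, Kit, Epcam and Pecam1, the genes for CD45, CD117, EpCam and CD31, had 0 reads in the 240 old cells, which allows up to 1.25% of cells with a read (counting error only). Cd34 was read in 234 and Pdgfra in 63 of the 240 cells. Decorin, Dcn, the most abundant fibroblast proteoglycan message here, was at 101879 and 97426 CPM in low and 103654 and 109542 CPM in high sums. Of the 10 fibroblast markers, 5 (50%) were lower and 2 (20%) higher in collagen-low cells in both experiments, beside 26.1% and 27.4% of all genes tested. Their median log2 difference was -0.34. Markers of papillary fibroblasts had 8 tested, of which 2 (25%) were lower and 1 (12.5%) higher in both experiments. For 4 reticular and hypodermal markers this was 1 (25%) and 1 (25%), and for 11 adventitial ones 3 (27.3%) and 2 (18.2%). Summed keratinocyte markers were at 41.3 to 117 CPM over the 6 old sums, endothelial at 57.9 to 209, macrophage at 44.6 to 100.0, lymphocyte at 45.6 to 146, pericyte and smooth muscle at 62.3 to 154, and Schwann and melanocyte at 0.596 to 57.4 CPM. Mast cell and mature adipocyte markers summed to at most 0.397 CPM and red cell markers were at 0. The defining genes Krt5, Cdh5, Adgre1, Cd3e, Rgs5 and Sox10 had no read in old cells. Low and high sums overlapped for each of these 6 lists.

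Depth was similar in both classes, and the mitochondrial share was not in experiment 1. Median reads per cell were 1343490 and 1428921 in collagen-low and 1302632 and 1409266 in collagen-high cells. Thinned to 100000 reads, the median collagen-low cell had 1448 and 1625 detected genes and the median collagen-high cell 1562 and 1719 (1789, 2048, 1935 and 2169 without thinning). The median mitochondrial share of reads was 2.31% in low and 3.21% in high cells of experiment 1, and 2.99% and 2.93% in experiment 2. Across cells the collagen value had a Spearman correlation with the mitochondrial share of 0.382 in experiment 1 (126 cells) and 0.0994 in experiment 2 (114 cells), given as a description because the cells share plates and mice. Collagen-low cells made up 22.7 to 51.9% of the old cells of a plate. The part of these differences in the results below was not tested.

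Reads were added over the cells of each class, age and experiment, and levels below are CPM of these sums, with library sizes that leave out the 3 collagen genes. Differences are log2 values, low minus high, so a negative value means less in collagen-low cells, and each carries a standard error from edgeR. The 6 old sums held 46216350 to 71174224 reads. Without molecular identifiers, 1 cell with much amplified cDNA can carry a sum. The largest share that 1 cell had in any low or high old sum is therefore given where it matters. Middle sums are not covered by these shares. Counts of plates with a direction come from the same cells as the sums and are no separate support. A lower level in a sum can come from fewer cells with the message or from less message per cell, and for the leading genes the values per cell are given too.

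Among the fibrillar and fibril-associated genes, Sparc stood closest to the collagen value. Sparc (chr11:55394500-55423183, minus strand) encodes a secreted glycoprotein that binds collagen and assists fibril assembly. It was at 1011 and 1242 CPM in low, 1126 and 1884 CPM in middle and 4689 and 2991 CPM in high sums of experiments 1 and 2. Both low sums lay below both high sums. The log2 difference was -1.79 ± 0.31 (edgeR, adjusted p = 0.365), and Sparc was lower in collagen-low cells on 9 of 9 plates. In single cells the median was 769 and 1052 CPM in low and 3017 and 2556 CPM in high cells. After thinning, Sparc was read in 85.7 and 92.1% of low cells and in 100% of high cells in both experiments. So the difference lay more in the amount per cell than in the number of cells with a read.

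Col5a2 had the smallest p of all genes. It encodes a chain of type V collagen, a minor fibrillar collagen that nucleates type I fibrils. Its sums were 85.9 and 153 CPM in low, 154 and 209 CPM in middle and 426 and 561 CPM in high cells. The difference was -2.08 ± 0.23 (edgeR, adjusted p = 0.350), with 1 cell holding up to 33.7% of a sum. After thinning it was read in 21.4 and 21.1% of low and 47.6 and 57.9% of high cells. Its partner chain Col5a1 was at 74.3 and 84.2 CPM in low and 174 and 71.2 CPM in high sums, and these overlapped. The 6 further fibrillar collagen genes on the list were not tested for want of cells with a read.

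Collagen VI, a beaded microfibrillar collagen around cells, did not move as a unit. Col6a2 was at 63.9 and 14.1 CPM in low and 196 and 78.9 CPM in high sums (difference -1.97 ± 0.64, adjusted p = 0.610) and was lower on 9 of 9 plates. Col6a3 was at 140 and 95.3 CPM in low and 69.5 and 17.4 CPM in high sums, the opposite order (1.57 ± 0.64, adjusted p = 0.676), but its difference was -2.14 with sums per plate. Col6a1 overlapped between classes at 282 and 368 CPM in low and 386 and 308 CPM in high sums. Among network, basement membrane and fibril-associated collagens 4 were tested. In both experiments 3 (75%) were lower and 1 (25%) higher in collagen-low cells, beside 26.1% and 27.4% of all genes tested. The lower ones were Col15a1, at 4.15 and 1.85 against 53.6 and 19.6 CPM, Col18a1, at 18.3 and 7.69 against 57.5 and 84.2 CPM, and Col16a1, at 127 and 81 against 174 and 135 CPM. Single cells held up to 71.7% of a Col15a1 sum and 83.2% of a Col18a1 sum.

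Genes that fold, cut and crosslink collagen were examined next. Of 32 members 18 were tested and 0 were called in either direction. In both experiments 10 (55.6%) were lower and 1 (5.56%) higher in collagen-low cells, beside 26.1% and 27.4% of all genes tested. The median difference was -0.37 against 0.01 over all genes tested. It ranged from -0.78 to -0.29 over 19 alternative analyses, of which limma works on mean log values per cell and so on another scale. Pcolce, which enhances the removal of the C-terminal propeptide, was at 670 and 703.2 CPM in low, 1038 and 965 CPM in middle and 1141 and 1300 CPM in high sums. Its difference was -0.83 ± 0.18 (edgeR, adjusted p = 0.420), and it was lower on 9 of 9 plates. Adamts2, the protease that removes the N-terminal propeptide, was at 105 and 95.2 CPM in low and 366 and 235 CPM in high sums (-1.53 ± 0.26, adjusted p = 0.365). Ppib, a prolyl isomerase of the endoplasmic reticulum, was at 469 and 582 CPM in low and 563 and 797 CPM in high sums. It was lower in collagen-low cells in each experiment, though the ranges overlapped across experiments. The same held for Pcolce2, at 868 and 1937 against 1187 and 2060 CPM. P4hb, the disulphide isomerase that is also the beta subunit of prolyl 4-hydroxylase, was at 1005 and 763 CPM in low and 865 and 883 CPM in high sums, a difference of 0.00 ± 0.27.

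**Figure D2:**
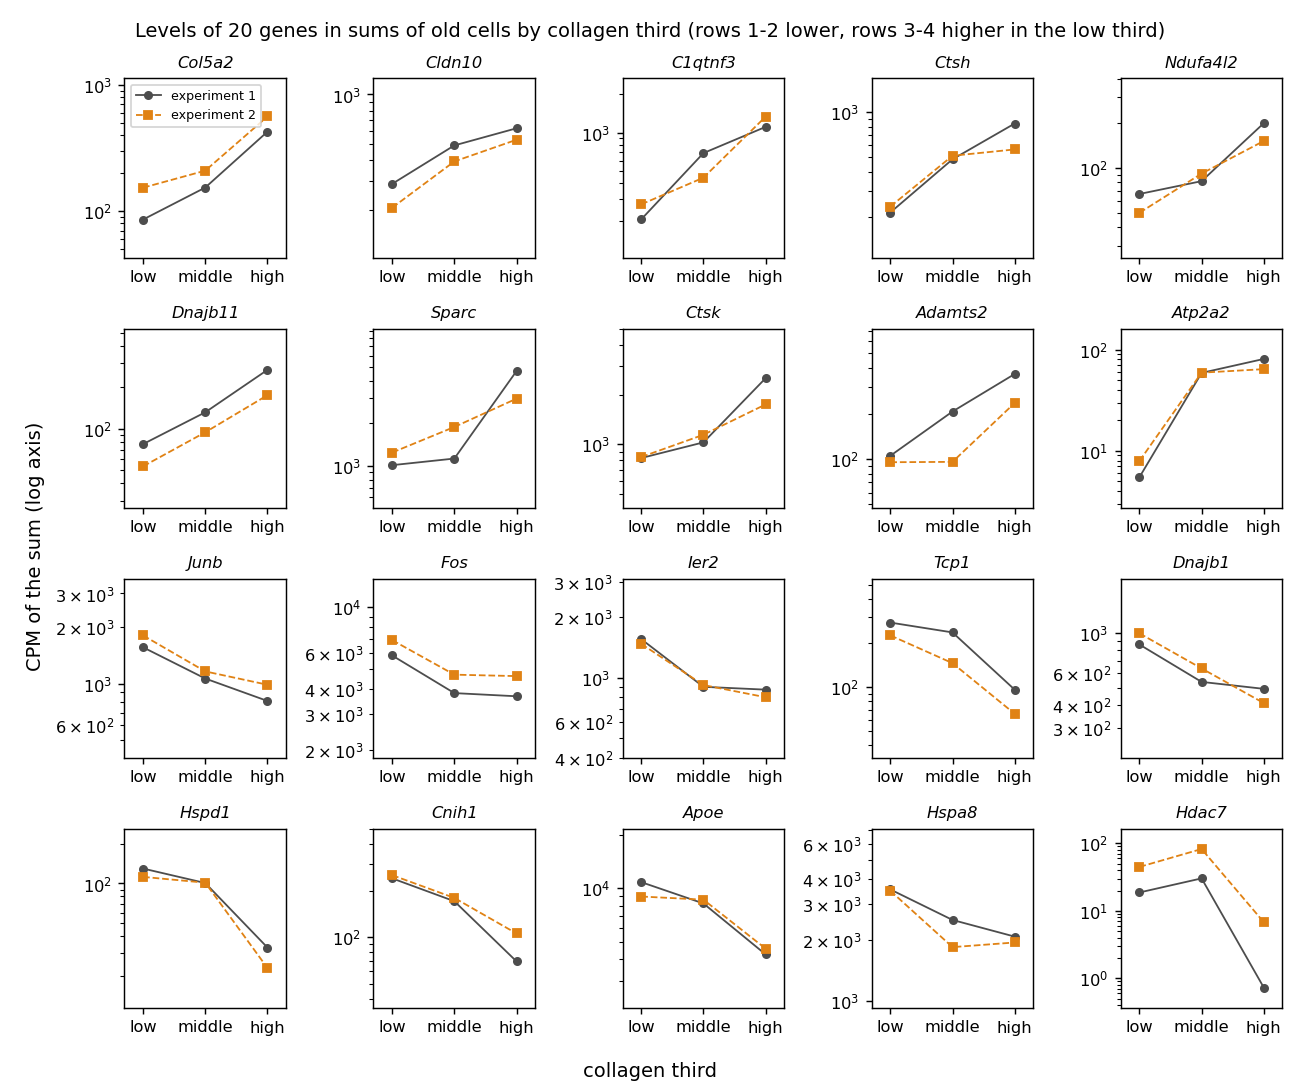
Levels of the 10 genes with the smallest p at lower values (upper 2 rows) and the 10 at higher values (lower 2 rows) in collagen-low old cells, as CPM of the summed reads on a log axis (y axis) in low, middle and high cells (x axis), 1 line per experiment. Sparc goes from 1011 and 1242 CPM in low to 4689 and 2991 CPM in high sums, and Apoe from 10835 and 8991 to 4242 and 4572 CPM.

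Fitted over both experiments, the wider secretory pathway had a median closer to 0 than the collagen folding list, though not in experiment 2. By experiment its medians were -0.27 and -0.32, beside -0.64 and -0.29 for that list. Of 46 genes for entry into, folding in and export from the endoplasmic reticulum, 44 were tested. In both experiments 22 (50%) were lower and 6 (13.6%) higher in collagen-low cells, beside 26.1% and 27.4% of all genes tested. The median difference was -0.27 (-0.47 to -0.19 over the alternatives). Dnajb11, a co-chaperone of the endoplasmic reticulum, was at 77.4 and 53.3 CPM in low and 269 and 176 CPM in high sums (-1.76 ± 0.30, edgeR adjusted p = 0.365), and was lower on 6 and higher on 3 plates. Hspa5, the main Hsp70 chaperone of that compartment, overlapped at 3065 and 1719 CPM in low and 3354 and 1161 CPM in high sums. Cnih1, a cargo receptor for export from the endoplasmic reticulum, had the opposite order, at 241 and 253 CPM in low and 69.7 and 106 CPM in high sums (1.51 ± 0.30, adjusted p = 0.420), and was higher in collagen-low cells on 9 of 9 plates. Single cells held up to 53.5% of a Cnih1 sum.

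Elastic fibre and microfibril genes form the network that lets skin recoil. Of 17 members 15 were tested. In both experiments 12 (80%) were lower and 1 (6.67%) higher in collagen-low cells, beside 26.1% and 27.4% of all genes tested. The median difference was -0.68 (-0.89 to -0.35 over the alternatives, the latter without experiment 1 of the old cells). By experiment the medians were -0.56 and -0.33, beside -0.64 and -0.29 for collagen folding, processing and crosslinking. Fbn1, fibrillin 1, was at 426 and 782 CPM in low and 1020 and 928 CPM in high sums (-0.74 ± 0.27, edgeR adjusted p = 0.666). Mfap5, a microfibril-associated protein, was at 501.7 and 1132 CPM in low and 858 and 1853 CPM in high sums, lower in each experiment while the experiments differed in level. Mfap4 was at 1259 and 710.5 CPM in low and 2236 and 1004 CPM in high sums. Efemp1, fibulin 3, was at 3541 and 4366 CPM in low and 5044 and 4824 CPM in high sums.

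The small proteoglycans that coat fibrils ranged from little difference for Dcn to a lower value on every plate for Bgn. Of the 8 tested, 5 (62.5%) were lower and 1 (12.5%) higher in both experiments, beside 26.1% and 27.4% of all genes tested. The median difference was -0.30 (-0.90 to -0.25 over the alternatives). Lumican, Lum, was at 13345 and 14147 CPM in low, 16135 and 15763 CPM in middle and 19168 and 19812 CPM in high sums, so the classes did not overlap (-0.50 ± 0.18, edgeR adjusted p = 0.666). Biglycan, Bgn, was at 611 and 716 CPM in low and 852 and 1409 CPM in high sums (-0.73 ± 0.20, adjusted p = 0.530) and was lower on 9 of 9 plates. Dcn, given above, differed by -0.10 ± 0.09. Among adhesive glycoproteins 4 of 13 tested (30.8%) were lower and 2 (15.4%) higher in both experiments, beside 26.1% and 27.4% of all genes tested. The median of -0.18 ranged from -0.75 to 0.08. Fn1, fibronectin, was at 437 and 1878 CPM in low and 1118 and 1853 CPM in high sums, lower in experiment 1 only, while Tgfbi, a collagen-binding adhesion protein, was at 603 and 682 against 988 and 904 CPM.

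Matrix proteases with their inhibitors, and lysosomal genes, formed 2 further lists, in neither of which a gene was called. Over all genes tested 26.1% were lower and 27.4% higher in collagen-low cells in both experiments. Of 16 tested proteases and inhibitors, 10 (62.5%) were lower and 4 (25%) higher (median -0.36, from -0.92 to -0.23 over the alternatives). Of 19 tested lysosomal genes 12 (63.2%) were lower and 0 (0%) higher (median -0.38, from -0.82 to -0.27). Ctsk (chr3:95499256-95509362), the collagen-cleaving cathepsin K, was at 825 and 837 CPM in low, 1027 and 1143 CPM in middle and 2518 and 1745 CPM in high sums. The difference was -1.35 ± 0.23 (edgeR, adjusted p = 0.365), and Ctsk was lower on 9 of 9 plates. Its median per cell was 535 and 554 CPM in low and 1305 and 1154 CPM in high cells, and after thinning it was read in 61.9 and 65.8% against 92.9 and 89.5% of cells. Ctsh, the lysosomal aminopeptidase cathepsin H, was at 214 and 234 CPM in low and 840 and 564 CPM in high sums (-1.63 ± 0.27, adjusted p = 0.365). Ctsl, cathepsin L, differed by less, at 1494 and 1781 against 2245 and 2781 CPM (-0.62 ± 0.13, edgeR adjusted p = 0.420). Ctsb, cathepsin B, was lower by little in each experiment, at 1819 and 1739 against 1887 and 2153 CPM. Timp2, an inhibitor of metalloproteinases, was at 690 and 790 CPM in low and 1148 and 1328 CPM in high sums (-0.74 ± 0.19, adjusted p = 0.460).

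The remaining genes at the smallest p with lower values had other roles. C1qtnf3, a secreted protein of the C1q and TNF family, was at 207 and 272 CPM in low and 1108 and 1334 CPM in high sums (-2.35 ± 0.33, edgeR adjusted p = 0.365), with up to 45.2% of a sum from 1 cell. Cldn10, a claudin, was at 288 and 207 CPM in low, 492 and 394 CPM in middle and 625 and 533 CPM in high sums (-1.24 ± 0.16, adjusted p = 0.365). Ndufa4l2, a mitochondrial protein, was at 66.9 and 50 CPM in low and 200.4 and 152 CPM in high sums. Atp2a2, the calcium pump of the endoplasmic reticulum, had the largest difference of the 10 (-3.45 ± 0.61), but 1 cell held up to 95.7% of a sum and it was read after thinning in only 4.8 and 7.9% of low and 19 and 13.2% of high cells. Among the IGF binding proteins, Igfbp5 was at 591 and 1071 against 1263 and 1562 CPM and Igfbp6 at 1522 and 2323 against 2755 and 2653 CPM.

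Immediate early genes, which cells transcribe within minutes of a stimulus, had higher values in collagen-low cells. Of 33 members 28 were tested and 0 were called. In both experiments 21 (75%) were higher and 2 (7.14%) lower, beside 27.4% and 26.1% of all genes tested. The median difference was 0.63. Over 19 alternative analyses the median lay between 0.44 and 1.07. Summed over the list, the level was 25692 and 28047 CPM in low, 20638 and 19575 CPM in middle and 17508 and 18730 CPM in high sums. Fos (chr12:85473890-85477273), a subunit of the AP-1 transcription factor, was at 5805 and 6904 CPM in low, 3799 and 4677 CPM in middle and 3666 and 4602 CPM in high sums. Its difference was 0.62 ± 0.10 (edgeR, adjusted p = 0.365), and it was higher on 7 of 9 plates. Junb (chr8:84974484-84978718, minus strand), another AP-1 subunit, was at 1555 and 1798 CPM in low, 1063 and 1159 CPM in middle and 808 and 985 CPM in high sums (0.91 ± 0.14, adjusted p = 0.365). Both genes had each low sum above every middle and high sum of the same experiment.

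Other genes of the list differed in how far the classes lay apart. Ier2 was at 1554 and 1472 CPM in low and 872 and 799 CPM in high sums (0.86 ± 0.14, edgeR adjusted p = 0.365), and was higher on 6 and lower on 3 plates. Egr1, a zinc finger transcription factor, was at 3185 and 3368 CPM in low and 1724 and 2407 CPM in high sums (0.68 ± 0.16, adjusted p = 0.420). Nfkbia, the inhibitor of NF-kappa-B, was at 2513 and 2468 against 1510 and 1813 CPM. Dusp1, a MAP kinase phosphatase induced with the same genes, overlapped at 3821 and 3289 CPM in low and 3787 and 3045 CPM in high sums (0.06 ± 0.14). Within each experiment Dusp1 had the order of Fos and Junb, by little. Of the 28 tested members, 2 were lower in collagen-low cells in both experiments and 5 had no shared direction. Gadd45b, a stress-induced gene from the growth arrest list, was at 212 and 397 CPM in low and 101 and 200 CPM in high sums.

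Heat shock chaperones of the cytosol and mitochondria were among the genes with the smallest p at higher values. Hspa8, the constitutive Hsp70, was at 3554 and 3501 CPM in low, 2509 and 1840 CPM in middle and 2075 and 1940 CPM in high sums (0.82 ± 0.17, edgeR adjusted p = 0.420). It was higher in collagen-low cells on 9 of 9 plates, and no cell held more than 8.39% of a low or high sum. Dnajb1, an Hsp40 co-chaperone, was at 863 and 994 CPM in low and 492 and 411 CPM in high sums, and Tcp1, a subunit of the cytosolic chaperonin, at 277 and 226 against 96 and 65.6 CPM. Hspd1, the mitochondrial chaperonin, was at 130 and 112 CPM in low and 32.8 and 23 CPM in high sums (2.13 ± 0.43, adjusted p = 0.420), though 1 cell held up to 61.6% of a sum and only 5 of 9 plates were higher. The largest value of the 10, 3.60 ± 0.77 for the histone deacetylase Hdac7, came with up to 99.5% of a sum from 1 cell. Hdac7 was read after thinning in 9.5 and 7.9% of low and 2.4 and 2.6% of high cells.

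Apoe, the lipid-carrying apolipoprotein E, was the most abundant of the leading genes. Apoe (chr7:19696109-19699188, minus strand) was at 10835 and 8991 CPM in low, 8216 and 8631 CPM in middle and 4242 and 4572 CPM in high sums. Its difference was 1.17 ± 0.24 (edgeR, adjusted p = 0.420), with 9 of 9 plates higher in collagen-low cells. The median cell held 8357 and 7833 CPM in the low and 419 and 1413 CPM in the high class. After thinning, Apoe was read in 90.5 and 86.8% of low and in 61.9 and 57.9% of high cells, so both the number of cells with a read and the amount per cell went with the class. Apolipoprotein and lipid mediator genes had 7 tested. In both experiments 4 (57.1%) were higher and 1 (14.3%) lower, beside 27.4% and 26.1% of all genes tested. Apod was at 15657 and 1246 CPM in low and 941 and 629 CPM in high sums, with the middle sum of experiment 2 at 3208 CPM. Enpp2, which encodes the lysophospholipase autotaxin, was at 822 and 228 CPM in low and 146 and 329 CPM in high sums, so its order was opposite in the 2 experiments.

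**Figure D3:**
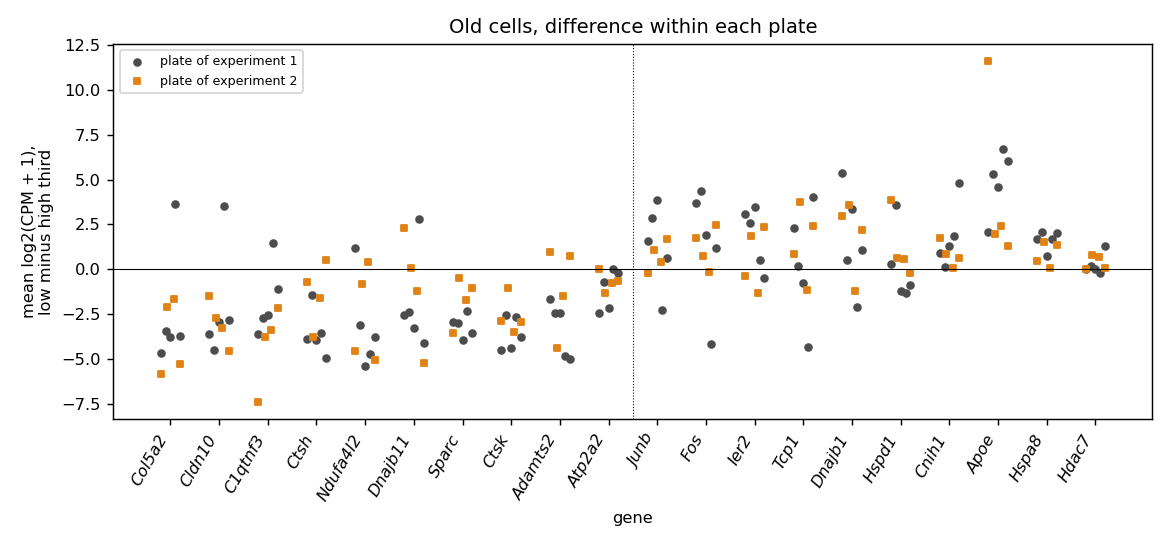
Each point is 1 plate, and the y axis gives the mean of log2(CPM + 1) over its collagen-low old cells minus that over its collagen-high old cells, for the 20 genes with the smallest p (x axis; 10 at lower values left of the dotted line, 10 at higher values right of it). All 9 plates lie below 0 for Sparc and Ctsk and above 0 for Cnih1, Apoe and Hspa8, and points fall on both sides of 0 for Adamts2 and Hspd1.

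Within plates, the 10 genes at lower values were lower in collagen-low cells on 6 (Dnajb11) to 9 of 9 plates. The 10 genes at higher values were higher on 5 to 9 plates, with 5 for Hspd1 and Hdac7, 6 for Ier2 and Tcp1, and 7 for Junb, Fos and Dnajb1. Both sets were chosen from the same cells by small p and a shared direction in both experiments. Mostly like directions on the plates follow in part from that choice, so these counts are a description. Plate counts over all genes tested are not given beside them. Taking plates in place of experiments as the unit gave more calls. With sums per plate and the plate as a block, edgeR called 8 of 4939 genes lower (0.162%) and 0 higher (0%). These were Sparc (-1.96 ± 0.22, adjusted p = 9.1e-07), Ctsh (-1.55 ± 0.24, adjusted p = 5.3e-04), Ctsk (-1.47 ± 0.26, adjusted p = 0.00349), Ppic (-1.43 ± 0.31, adjusted p = 0.0275), Vkorc1, AY036118, Gm42418 and CT010467.1. Ppic, a prolyl isomerase of the secretory pathway, was at 364 and 528 CPM in low and 1269 and 1097 CPM in high sums of the experiments. Vkorc1, the vitamin K epoxide reductase, was at 247 and 340 against 539 and 489 CPM. Plates of an experiment may hold cells of the same mice, so these p-values measure the spread between plates and not between animals. CT010467.1 (chr17:39846353-39848827, minus strand) is annotated as ribosomal RNA and Gm42418 (chr17:39846958-39848788, plus strand) overlaps it on the opposite strand, so their reads cannot be told apart without the strand setting. CT010467.1 was at 2442 and 4385 CPM in low and 4656 and 5728 CPM in high sums. With plate sums AY036118, Gm42418 and CT010467.1 had nearly the same differences (-0.629, -0.629 and -0.640), so they cannot be counted as separate signals among the 8.

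The 2 experiments were more alike for abundant genes. Of the 698 genes of at least 200 CPM over the old sums, 233 (33.4%) were lower and 199 (28.5%) higher in collagen-low cells in both experiments. Across these genes the log2 differences of the experiments had a Pearson correlation of 0.327, and across all 4939 genes of 0.0423. These correlations are across genes, which are not independent replicates, and are given as a description. Over all 3 classes, 203 genes went up in order from low over middle to high sums in both experiments, and 169 went down.

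**Figure D4:**
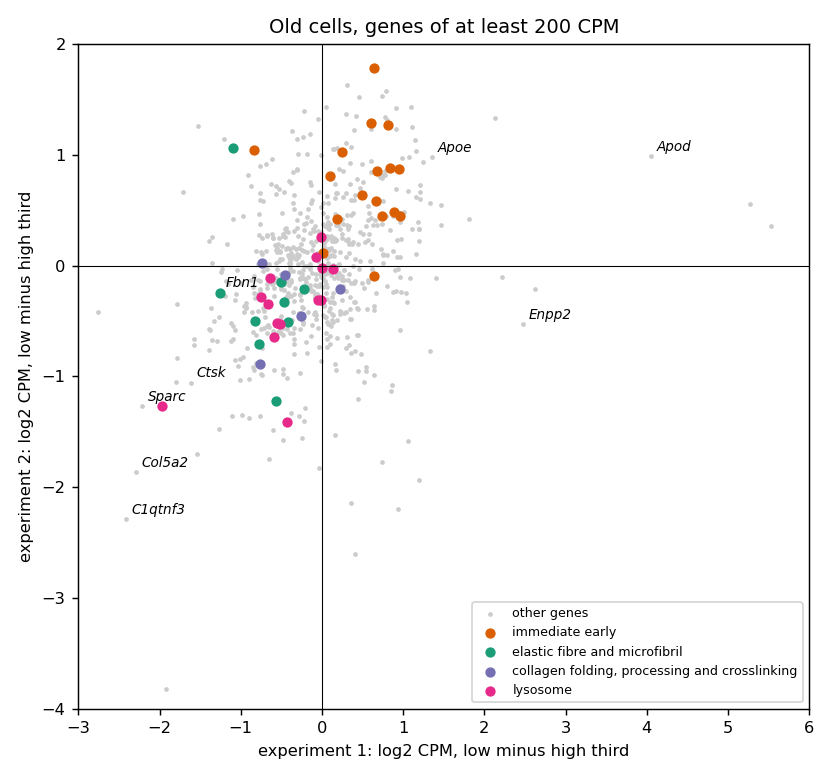
Each point is 1 of 698 genes of at least 200 CPM, with its log2 difference, collagen-low minus collagen-high old cells, in experiment 1 (x axis) and experiment 2 (y axis), with 4 gene lists coloured. Immediate early genes lie mostly in the upper right and lysosomal and elastic fibre genes mostly in the lower left, while Enpp2 changes sign between the experiments (2.48 and -0.53).

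Ranked by Spearman correlation with the collagen value across old cells, among genes of at least 20 CPM, Sparc again led, at 0.530 across the 126 cells of experiment 1 and 0.449 across the 114 of experiment 2. The next were Ctsk (0.401 and 0.248), CT010467.1 (0.406 and 0.210), Ppp1r14a (0.356 and 0.256), Ppic (0.395 and 0.193), Vkorc1 (0.310 and 0.274), Gm42418 (0.435 and 0.146), mt-Nd4 (0.367 and 0.210), Aebp1 (0.319 and 0.254) and Col5a2 (0.260 and 0.329). CT010467.1 and Gm42418 overlap, as given above, and are not to be read as separate correlates. At the other end Nfib, a nuclear factor I gene, stood at -0.333 and -0.312, Hspa8 at -0.308 and -0.301 and the chemokine gene Cxcl12 at -0.235 and -0.330. Nfib was at 142 and 77.5 CPM in low and 22.4 and 18.8 CPM in high sums and was higher in collagen-low cells on 9 of 9 plates, with 1 cell at up to 77.5% of a sum. Cxcl12 was at 381 and 605 against 169 and 295 CPM. Cells share plates, mice and depth, so no p is attached.

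Outside the matrix, 5 more lists held no called gene, and the size of most of their medians depended on the analysis. Over all genes tested 27.4% were higher and 26.1% lower in collagen-low cells in both experiments. Interferon-stimulated genes had 16 tested, of which 9 (56.25%) were higher and 0 (0%) lower. Their median of 0.41 became 0.20 with classes set within plates and 0.19 with classes at the median, and reached 1.23 with all genes read in old sums. Irf1, an interferon-induced transcription factor, was at 510 and 907 CPM in low and 427 and 500.2 CPM in high sums. Complement genes had 10 tested, 7 (70%) higher and 2 (20%) lower, with a median of 0.31 that ranged from 0.09 to 0.79. C1s1, a complement protease, was at 613 and 831 against 222 and 644 CPM. Of 10 growth arrest and senescence genes tested, 6 (60%) were higher and 1 (10%) lower. Their median of 0.42 was 0.01 with plate sums, where 5 of 10 had negative differences, and 0.15 by limma. Cdkn1a, which encodes the cell cycle inhibitor p21, was at 588 and 478 against 362 and 317 CPM. Of 13 mitochondrially encoded messages, 8 (61.5%) were lower and 1 (7.69%) higher in both experiments (median -0.46). Their medians were -0.77 in experiment 1 and -0.19 in experiment 2, beside the difference in mitochondrial share given above. Of 88 cytoplasmic ribosomal protein genes 30 (34.1%) were higher and 14 (15.9%) lower in both experiments, beside 27.4% and 26.1% of all genes tested. Their median of 0.07 turned to -0.04 by limma, where 50 of 88 were negative.

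**Figure D5:**
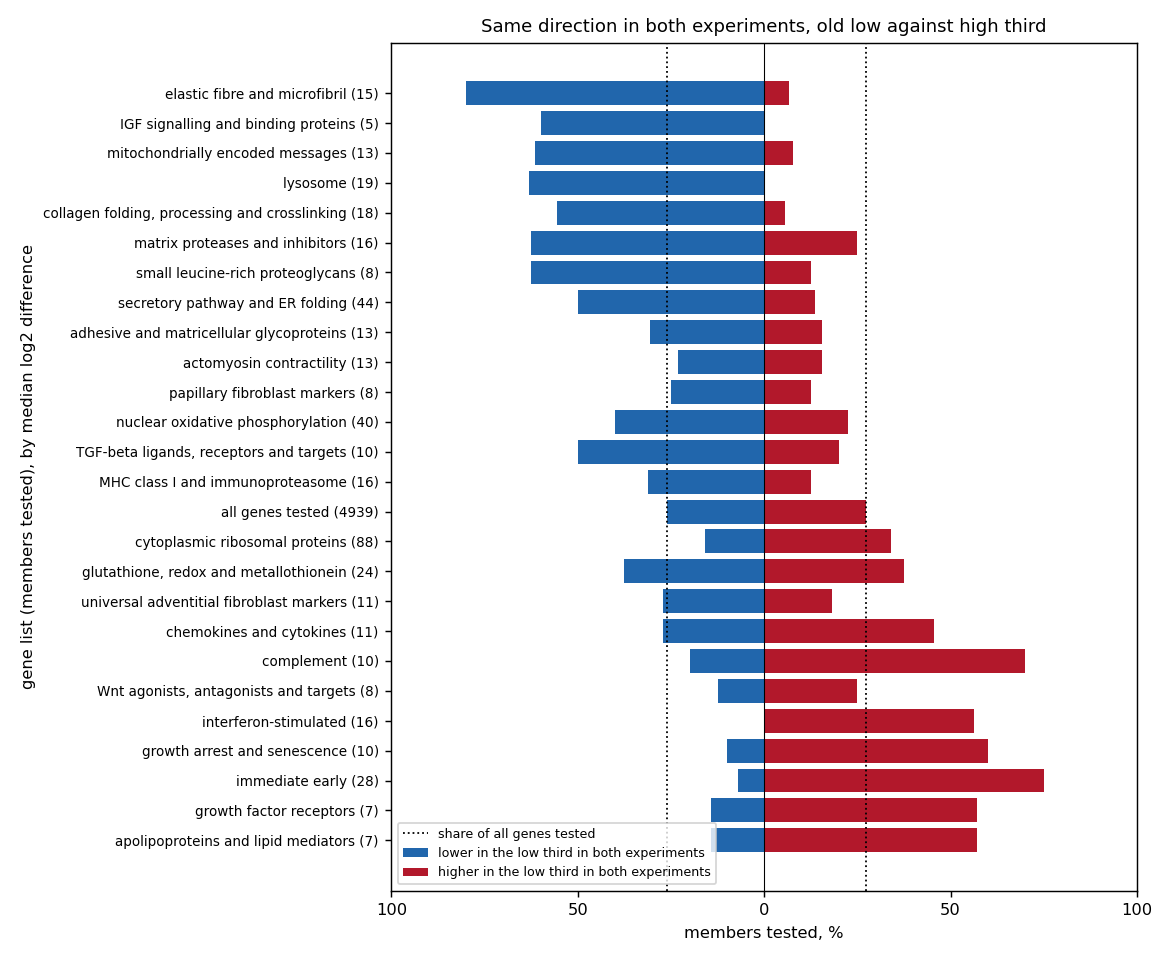
Share of the tested members of each gene list (x axis, percent) that were lower (left) or higher (right) in collagen-low than in collagen-high old cells in both experiments, for lists of at least 5 tested genes ordered by median difference (y axis). Dotted lines mark the shares over all genes tested, 26.1% and 27.4%; elastic fibre genes reach 12 of 15 lower and immediate early genes 21 of 28 higher.

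Young cells, divided in the same way within their own experiments, showed whether the same genes went with collagen at 2 months. Over the same 4939 genes, edgeR called 1 gene lower (0.0202%) and 0 higher (0%) in collagen-low young cells. That gene was Cldn10, at 327 and 271 CPM in low and 1472 and 1110 CPM in high sums (-2.10 ± 0.16, adjusted p = 0.0326). The number of calls in young cells depended on the analysis: DESeq2 gave 168 lower and 123 higher, limma 34 and 10, plate sums 15 and 6, and edgeR 0 and 0 when either young experiment was left out. The difference between the ages was tested as an interaction, which called 0 genes lower (0%) and 0 higher (0%), with 284 at an unadjusted p under 0.05, while DESeq2 called 65 lower and 61 higher. For Cldn10 the interaction was 0.86 ± 0.22 (edgeR, adjusted p = 0.810). Sparc was at 3106 and 2974 CPM in low and 24231 and 27626 CPM in high young sums, a log2 difference of -3.09 beside -1.79 in old cells (interaction adjusted p = 0.828). Apoe was at 3325 and 4557 CPM in low and 1345 and 975 CPM in high young sums, 1.78 beside 1.17 (adjusted p = 0.917).

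The genes with the smallest interaction p included an AP-1 subunit, a complement component and 2 proteoglycans. Fos had higher values in collagen-low cells of old skin, and in young skin it was at 5005 and 7046 CPM in low and 5424 and 8657 CPM in high sums (interaction 0.83, edgeR adjusted p = 0.616). Junb was at 931 and 1710 against 646 and 1107 CPM in young sums, the same order as in old ones. Over the immediate early list the median difference was 0.19 in young and 0.63 in old cells. C3, the central complement component, was at 1590 and 1085 CPM in low and 389 and 180 CPM in high young sums, against 835 and 913 and 743 and 580 CPM in old ones (interaction -1.92, adjusted p = 0.616). Ogn, the proteoglycan osteoglycin, was at 1808 and 1756 against 503.2 and 699 CPM in young sums, and at 406 and 1288 against 386 and 1013 CPM in old sums. Gpc4, a cell surface glypican, was at 205 and 284 against 32.9 and 146 CPM in young sums, and at 44.9 and 54 against 201 and 197 CPM in old sums, the opposite order. None of these differences between ages passed the test.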

How the data were processed

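The deposited values were raw read counts per gene and well, in 11 tables by plate or sequencing run. GRCm38 and FastQC are named in the submitters' processing notes, while the aligner, counter and strand setting were not given in the sources used here. Of the values above 0, 73.8 to 76.6% were even, so read mates may have been counted singly and count-based intervals may be too narrow. Runs of a plate were added by well, 51777 genes shared by all tables were kept, and cells needed 50000 reads, 1000 genes and at most 25% mitochondrial reads. Gene positions are from GENCODE M21. Values per cell thinned to 100000 reads used a fixed seed.

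Reads were summed over the cells of each class, age (old, young) and experiment, giving 12 sums with n = 2. Genes with a read in at least 10% of old cells (4939) were fitted with edgeR 4.0.16 in R 4.3.3 (TMM, robust quasi-likelihood, age by experiment as a block, Benjamini-Hochberg threshold 0.05), and the old minus young difference as an interaction. The experiment was a block because low and high cells of an experiment come from the same sort and plates. Standard errors are the absolute log2 difference over the square root of F. The fit was also run on counts simulated from its own fitted means and dispersions. The share of true differences it recovered is not given here, so 0 calls do not show that no gene differed. DESeq2 1.42.0 and limma 3.58.1 were alternatives. The members and gene lists were chosen with earlier results of these data known. No gene being called, the text names by rule the 10 smallest p in each direction among genes of at least 20 CPM with the same direction in both experiments, abundant members of each list, the 5 smallest interaction p in each direction, and genes most like or unlike the collagen value; not every gene the rule gives is printed. No doublet caller was used on these singly sorted cells.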

Additional observations from a re-analysis of the deposited data

How the results depend on the processing

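The counts of called genes stayed at 0 lower and 0 higher, in old cells and for the old minus young difference, under each alternative with a value apart from 2: totals without TMM, library sizes with the collagen genes, limma, both gene filters, no replicate block (0 and 0), old sums alone, classes set within plates, at the median or within classes of gene number, thinned cells, a minimum of 1500 genes, and each experiment of each age left out (0 to 0). DESeq2 called 122 lower and 89 higher, and 65 and 61 for the interaction; plate sums called 8 lower. Leaving out the old cell of highest collagen was chosen after seeing the data, and it gave 0 calls. Where 1 experiment of an age was left out, the lone one was assumed to vary like the other sums.

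Of 1406 values of 74 genes under 19 alternatives, 27 changed sign, and 63 genes never did. By limma, differences became -0.7394 for P4hb, 0.0353 for Dcn and -1.2546 for Ogn. By plate sums they became -0.0573 for P4hb, -2.1386 for Col6a3, -0.0782 for Ogn and -0.273 for Dusp1. P4hb was at -0.0227 with collagen in the library size, -0.0079 by DESeq2, -0.0272 with filterByExpr, -0.0228 with all genes read, -0.0917 with classes within plates, -0.192 thinned and -0.001 without the highest cell. Dusp1 was at -0.023 with classes within plates, -0.1053 thinned and -0.001 at 1500 genes, and Ogn at -0.2434 thinned and -0.2517 at 1500 genes. With 1 experiment of an age left out, differences ranged from -0.224 to 0.2172 for P4hb, -1.2245 to 0.2289 for Col5a1, -0.4535 to 0.247 for Col6a1, -1.3564 to 0.0059 for Fn1, -0.5456 to 2.4886 for Enpp2, -0.1297 to 0.5528 for Hspa5 and -0.4102 to 0.0595 for Cd34. The cause was not tested.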

Other observations

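Old collagen-high and young collagen-low cells held similar amounts of the 3 collagen messages, with medians of 17162 and 13842 CPM in old high and 18071 and 11091 CPM in young low cells of experiments 1 and 2. Side by side and with no test, Sparc was at 4689 and 2991 CPM in old high and 3106 and 2974 CPM in young low sums. Apoe was at 4242 and 4572 CPM in old high and 3325 and 4557 CPM in young low sums, and Ctsk at 2518 and 1745 against 1697 and 2351 CPM. For these 3 genes the ranges of old high and young low sums overlapped. They did not for Fos, C3, Ogn and Cldn10, whose values are given above, nor for Penk. The overlap over all genes tested was not counted, so these genes do not tell how alike the 2 groups were. Penk, the opioid precursor proenkephalin, was at 435 and 500.4 CPM in old high and 526 and 1101 CPM in young low sums. Within old skin Penk was at 930 and 1349 CPM in collagen-low sums, above both collagen-high sums (log2 difference 1.25 ± 0.40, edgeR adjusted p = 0.603).

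Lipid storage genes had few cells with a read in old skin. Of 28 members 4 were tested. In both experiments 3 (75%) were higher and 0 (0%) lower in collagen-low cells, beside 27.4% and 26.1% of all genes tested. Plin2, a lipid droplet coat protein, was at 144 and 166 CPM in low and 40.0 and 63.8 CPM in high sums, and Plin3 at 95.2 and 48.0 against 35 and 33.5 CPM. Pparg, Fabp4, Adipoq and Cd36 had no read in the old sums. Slc38a2, an amino acid transporter from the proline and glycine supply list, was at 348 and 418 CPM in low and 186 and 259 CPM in high sums. Nuclear oxidative phosphorylation genes had 16 of 40 (40%) lower and 9 (22.5%) higher in both experiments, beside 26.1% and 27.4% of all genes tested. Their median was -0.12, from -0.25 to -0.01 over the alternatives.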
